A study of Homo sapiens with 8 samples.

Results

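Cells that carried the guide RNA sgEZH2-1 were compared directly with cells that carried sgEZH2-2, both directed at EZH2, over every gene of the deposited count table. The 6 guide libraries of the series' 8 were compared, 3 for each guide, taken by the guide named in the label of each column. The 2 empty vector libraries gave the level against which the direction of a difference was described. They were also part of the fit, so they entered the filter, the scaling and the estimate of spread behind each test. Of 20294 genes in the table, 13124 had enough counts to be tested. All cells were HSC-5, an established line of human cutaneous squamous cell carcinoma that expressed Cas9 stably from a lentivirus. They were selected with G418, and they differed in the vector: empty (control), sgEZH2-1 or sgEZH2-2. The labels do not say whether the selected cells were pools or clones, nor whether the libraries of each group are separate cultures. The p-values then reflect only how far these libraries vary, which may be technical. The authors left out a further control library that clustered apart, and it was not analysed here.

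EZH2 is the enzyme of Polycomb repressive complex 2 (PRC2) and places methyl groups on lysine 27 of histone H3. With EED and SUZ12 it forms the core of the complex, and the mark keeps developmental genes silent in epithelial cells. In knockout work a guide RNA sets where Cas9 cuts, and different guides to the same gene are compared because a change that depends on the guide need not come from the shared target. Sterol regulatory element binding proteins switch on genes of cholesterol and fatty acid synthesis, hypoxia-inducible factors switch on genes of glycolysis and oxygen supply, and CIITA switches on MHC class II genes.

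The promoters of 5 members of the gene groups described below are printed, each with a match to a motif searched for its group. Each runs from 250 bases before to 50 after the start of the gene, is from RefSeq (GRCh38.p14) and reads 5′ to 3′ on the strand of the gene. Capitals mark matches, on either strand, to the searched motif: TCACCCCAC (a sterol response element) in SREBF2, TACGTG (a hypoxia response element core) in ALDOC, TTTGAA (the cell cycle homology element core) in ANLN and CDC20, and CTGATTGG (the Y box) in HLA-DRB1. None of these motifs overlaps another in its letters. The motifs were chosen with the expression values known. The printed promoters were picked from called members that hold a match, so the matches in them test nothing.
SREBF2: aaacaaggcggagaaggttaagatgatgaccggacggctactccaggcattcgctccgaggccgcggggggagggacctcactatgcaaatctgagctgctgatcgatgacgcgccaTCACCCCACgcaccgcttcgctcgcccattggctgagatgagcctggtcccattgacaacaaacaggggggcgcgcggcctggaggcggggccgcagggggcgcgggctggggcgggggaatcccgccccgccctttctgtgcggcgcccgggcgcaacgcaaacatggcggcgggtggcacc
ALDOC: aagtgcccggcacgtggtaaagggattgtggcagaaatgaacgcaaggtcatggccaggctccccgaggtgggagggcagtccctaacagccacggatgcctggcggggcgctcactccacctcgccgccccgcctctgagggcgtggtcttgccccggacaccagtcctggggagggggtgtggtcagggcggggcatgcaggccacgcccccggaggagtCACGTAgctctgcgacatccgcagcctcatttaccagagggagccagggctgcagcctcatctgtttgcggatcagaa
ANLN: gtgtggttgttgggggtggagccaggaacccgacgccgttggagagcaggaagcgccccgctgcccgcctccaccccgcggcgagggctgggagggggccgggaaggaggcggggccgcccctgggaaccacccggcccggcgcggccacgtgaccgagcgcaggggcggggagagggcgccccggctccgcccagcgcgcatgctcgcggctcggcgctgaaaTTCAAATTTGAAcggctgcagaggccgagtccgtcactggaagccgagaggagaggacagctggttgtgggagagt
CDC20: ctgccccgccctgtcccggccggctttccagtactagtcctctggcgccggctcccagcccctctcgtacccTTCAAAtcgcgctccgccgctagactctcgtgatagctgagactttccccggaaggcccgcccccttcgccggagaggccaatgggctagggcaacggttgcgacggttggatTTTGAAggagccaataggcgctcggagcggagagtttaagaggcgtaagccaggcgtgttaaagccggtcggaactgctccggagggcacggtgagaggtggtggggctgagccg
HLA-DRB1: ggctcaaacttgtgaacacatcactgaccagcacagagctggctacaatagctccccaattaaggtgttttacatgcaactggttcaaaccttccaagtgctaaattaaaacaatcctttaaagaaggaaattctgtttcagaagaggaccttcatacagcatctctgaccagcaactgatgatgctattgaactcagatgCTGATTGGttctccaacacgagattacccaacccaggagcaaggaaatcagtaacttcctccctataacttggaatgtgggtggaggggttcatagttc
SREBF2 lies at chr22:41832855-41833154 on the plus strand, ALDOC at chr17:28576846-28577145 on the minus strand, ANLN at chr7:36389612-36389911 on the plus strand, CDC20 at chr1:43358731-43359030 on the plus strand and HLA-DRB1 at chr6:32589799-32590098 on the minus strand. Among 27305 promoters of this length in the RefSeq table, TCACCCCAC was found in 0.425%, TACGTG in 3.33%, TTTGAA in 15.4% and CTGATTGG in 4.16%. In promoters of tested genes the shares were 0.396%, 3.4%, 9.86% and 5.5% in the same order. TTTGAA was found in 28 of the 40 promoters matched for 45 G2 and M phase genes, in 13 of 17 with a called difference and in 15 of 23 without one. TACGTG was found in 6 of 34 matched promoters of the hypoxia and glycolysis list, 3 of 17 called and 3 of 17 not called. The sterol motif was found in 1 of 29 matched promoters of the sterol and fatty acid list, 1 of 23 called and 0 of 6 not called. CCAAT was also searched for this list. It was found in 19 of 29, 16 of 23 called and 3 of 6 not called, beside 37.0% of promoters of tested genes. Its matches were not marked in the SREBF2 promoter. The Y box was found in 4 of 11 of the MHC class II list, 2 of 6 called and 2 of 2 not called. A match describes the letters and is not a measured site.

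The 8 libraries held between 12.6 M and 15.5 M counts, and no pair of libraries of a group agreed within sampling noise. Of 12 keratinocyte markers, all 12 were measured, with summed levels of 4529 to 5166 CPM (counts scaled by the TMM-adjusted library total) with sgEZH2-1, 4540 to 4629 with sgEZH2-2 and 5039 to 5136 in the controls. Leukocyte markers summed to 14.3 to 18.8 CPM with sgEZH2-1 and 11.7 to 13.9 with sgEZH2-2, with 3 of 12 tested and CD3E, CD3D, MS4A1, FCGR3A and TYROBP among those at 0 in every library. Fibroblast markers summed to 5.02 to 8.96 CPM with sgEZH2-1 and 11.04 to 14.08 with sgEZH2-2, with 1 of 9 tested (COL1A1) and COL1A2 at 0 throughout. Endothelial markers summed to 76.8 to 81.9 CPM with sgEZH2-1, 143 to 160.5 with sgEZH2-2 and 177 to 184 in the controls. Nearly all of that sum was CDH5, the endothelial cadherin (79.2, 74.6 and 78.0 CPM with sgEZH2-1 and 139, 153 and 156 with sgEZH2-2), and KDR was at 0. Melanocyte markers summed to 30.6 to 33.1 and 27.9 to 29.8 CPM, with TYR, DCT and SOX10 at 0 throughout. The part of other cell types in the differences below was not tested.

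The 2 guides gave different transcriptomes. At an adjusted p of at most 0.05 (quasi-likelihood F test of edgeR, two-sided, adjusted over all 13124 genes), 2874 genes differed, which is 21.9% of those tested. Of these, 1363 were higher with sgEZH2-1 (10.4%) and 1511 were lower (11.5%). Most differences were small: the median size was 0.32 on the log2 scale among higher genes and 0.45 among lower ones. A difference of at least 2-fold was found in 124 higher genes (0.945%) and 139 lower genes (1.06%). The median over all tested genes was -0.01.

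The libraries of the guides did not overlap in 42.2% of all tested genes, and in 99.7% of higher and 99.0% of lower genes. The mean of the controls lay between the means of both guides in 63.5% of higher genes and 61.4% of lower genes, against 36.4% of all tested genes. It lay below both guides in 30.7% of higher and 10.7% of lower genes, and above both in 5.87% and 27.99%. The sgEZH2-1 mean was the farther from the control in 73.4% of higher and 68.6% of lower genes, against 60.04% of all tested genes. These shares use the same guide libraries as the calls, so they describe the called genes and test nothing. Against the shared controls, sgEZH2-1 had 1478 genes higher (11.3%) and 1248 lower (9.51%), and sgEZH2-2 had 811 higher (6.18%) and 328 lower (2.5%). Without the first control library these counts were 844 and 529 for sgEZH2-1 and 439 and 82 for sgEZH2-2, and without the second control library sgEZH2-2 had 474 and 105. Without the second sgEZH2-1 library 693 genes were lower with sgEZH2-1 and 129 with sgEZH2-2. The genes lower with sgEZH2-2 numbered 135, 110 and 127 without the first, the second and the third sgEZH2-2 library.

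The count of differences changed when single libraries were left out. Each such fit also has fewer libraries, and the part of this in the lower counts was not tested. Without the second sgEZH2-1 library 754 genes were higher and 937 lower. The counts were 692 and 829 without the second sgEZH2-2 library, and 737 and 835 without the third. The first sgEZH2-1 library stood apart in base composition, as described at the end, and without it 1147 genes were higher and 1329 lower.

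**Figure D1:**
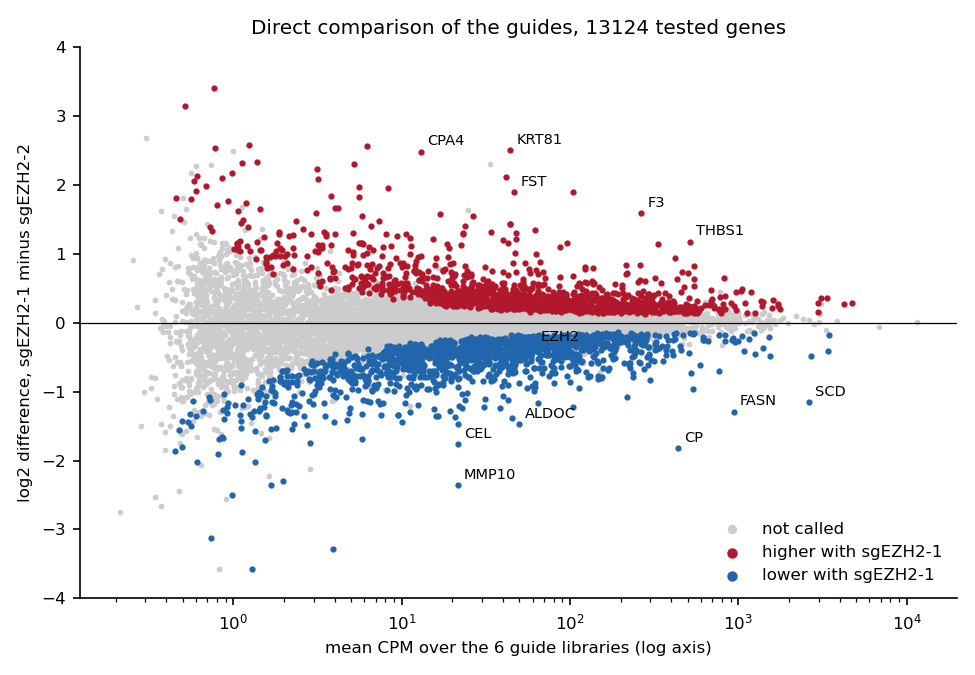
Each point is a tested gene, with its mean CPM over the 6 guide libraries on a log axis and its log2 difference, sgEZH2-1 minus sgEZH2-2, on the vertical axis. Red marks the 1363 genes called higher and blue the 1511 called lower with sgEZH2-1; 8 genes beyond 4 on the log2 scale and 1 gene at 0 in all guide libraries are not drawn.

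The targeted gene itself differed between the guides. EZH2 (chromosome 7, 148807383 to 148884321, minus strand, GRCh38) was at 56.4, 56.3 and 48.0 CPM with sgEZH2-1, 73.9, 67.6 and 65.1 CPM with sgEZH2-2 and 82.7 and 84.1 CPM in the controls. All 3 sgEZH2-1 libraries were below all 3 sgEZH2-2 libraries, and all 6 were below both controls. The difference between the guides was -0.36 on the log2 scale (SE 0.08, adjusted p = 0.00844). Against the controls the values were -0.64 for sgEZH2-1 (adjusted p = 0.000529) and -0.28 for sgEZH2-2 (adjusted p = 0.0699). Edited transcripts are counted too, so the level is not a measure of the protein. The guide sequences were not used here, so the cut sites were not placed in the gene.

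Of 13 tested PRC2 subunits and partners (15 listed), 1 was higher and 3 lower with sgEZH2-1, EZH2 included (7.69% and 23.1%, beside 10.4% and 11.5% of all tested genes). RBBP4, a histone chaperone of the complex, was lower (142, 145 and 126 CPM against 162, 175 and 167; log2 difference -0.28, SE 0.06, adjusted p = 0.00899). Its sgEZH2-1 libraries were below every other library. EED, which binds the methylated histone, was higher by 0.22 (SE 0.06, adjusted p = 0.021), and RBBP7, the close relative of RBBP4, was lower at -0.16 (SE 0.04, adjusted p = 0.0235). The EED call was lost without the third sgEZH2-1, the first sgEZH2-2 or the third sgEZH2-2 library, and the RBBP7 call without the second or the third sgEZH2-1 or the first or the third sgEZH2-2 library, with an adjusted p of up to 0.504 for EED and 0.099 for RBBP7 over all alternatives. With the GC offset described at the end the EED difference was 0.0669 and its call was lost too, as it was with that offset and without the first sgEZH2-1 library. In the fit with the offset 1 of the 13 was higher and 4 lower, beside 2157 and 1913 of 13079 genes. PHF19 gained a call as higher and JARID2 as lower there. SUZ12, the core scaffold, had a difference of 0.13 (SE 0.08, adjusted p = 0.251), and EZH1, the other catalytic subunit, had 0.02 (SE 0.08, adjusted p = 0.883).

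The largest differences in favour of sgEZH2-1 were led by KRT81. KRT81, a hair keratin (chromosome 12, 52285913 to 52291534, minus strand), was at 57.7, 75.3 and 91.9 CPM with sgEZH2-1, 12.7, 13.1 and 13.8 with sgEZH2-2 and 9.73 and 9.85 in the controls. The sgEZH2-1 libraries were the only high ones, and the difference was 2.51 on the log2 scale (SE 0.15, adjusted p = 7.21e-06). KRT86, a close copy whose reads may be shared, had 3.78, 3.83 and 3.99 CPM with sgEZH2-1 and 2.55, 2.67 and 2.82 with sgEZH2-2. ALPP, placental alkaline phosphatase, was at 139, 178 and 178 CPM with sgEZH2-1, 42.2, 45.8 and 45.2 with sgEZH2-2 and 55.4 and 54.2 in the controls (1.90, SE 0.09, adjusted p = 2.98e-06). Here too the sgEZH2-1 libraries alone were high. The near copy ALPG was at 0.85 to 1.96 CPM with sgEZH2-1, so it held few of the reads.

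A second set was low in the controls, and L1CAM, CELF2 and NEO1 of it were higher with both guides, more so with sgEZH2-1. L1CAM, a neural cell adhesion protein, was at 7.34, 9.30 and 9.45 CPM with sgEZH2-1, 1.79, 1.73 and 1.75 with sgEZH2-2 and 0.710 and 0.848 in the controls. Its groups did not overlap, and the guides differed by 2.30 (SE 0.17, adjusted p = 2.23e-05). CELF2, an RNA-binding splicing regulator, was at 5.25, 6.57 and 6.02 CPM with sgEZH2-1, 1.79, 1.73 and 1.45 with sgEZH2-2 and 0.0710 and 0.0652 in the controls, a guide difference of 1.84 (SE 0.18, adjusted p = 0.00013). NEO1, the netrin and RGM receptor neogenin, was at 63.3, 62.3 and 54.8 CPM with sgEZH2-1, 40.7, 39.8 and 43.4 with sgEZH2-2 and 2.70 and 2.28 in the controls. It was far above the controls with either guide and differed between them by 0.54 (SE 0.08, adjusted p = 0.000943). Unlike these, ROR1, a WNT5A receptor, was low with sgEZH2-2 too. It was at 5.10, 5.27 and 5.11 CPM with sgEZH2-1, 1.59, 0.787 and 1.22 with sgEZH2-2 and 0.781 and 0.913 in the controls (2.08, SE 0.23, adjusted p = 0.000233), and its sgEZH2-2 and control libraries overlapped.

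Among the other large differences in this direction were SERPINB2, an inhibitor of plasminogen activators (1.97, adjusted p = 0.000188), and KLK5, an epidermal serine protease (1.96, adjusted p = 2.76e-05). THBS1, the matrix protein thrombospondin 1, was at 630.3, 770.4 and 732 CPM with sgEZH2-1, 326, 286 and 333 with sgEZH2-2 and 532 and 499 in the controls. It was lower than control with sgEZH2-2 (-0.71, adjusted p = 0.000727) and higher than control with sgEZH2-1 (0.46, adjusted p = 0.00476), so the guides differed by 1.17 (SE 0.08, adjusted p = 1.38e-05).

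The histone H4 genes H4C14 and H4C15 gave opposite differences of -3.28 and 1.83 (adjusted p = 0.00869 and 0.00972). They are near-identical copies on chromosome 1, and the sum of both was 8.12 to 10.9 CPM with sgEZH2-1, 8.65 to 10.1 with sgEZH2-2, and 11.4 and 8.35 in the controls. Their split between copies is therefore uncertain, and the summed level overlapped between all groups.

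After the uncertain H4C14, the largest differences in the other direction were led by MMP10, CP and CEL. MMP10, the matrix protease stromelysin 2 (chromosome 11, 102770503 to 102780628, minus strand), was at 11.3, 5.13 and 4.90 CPM with sgEZH2-1, 33.0, 40.1 and 34.9 with sgEZH2-2 and 31.0 and 35.1 in the controls. The sgEZH2-1 libraries were the only low ones, and the difference was -2.36 (SE 0.24, adjusted p = 0.000147). CP, the copper oxidase ceruloplasmin (chromosome 3, 149162410 to 149222055, minus strand), was at 261, 158 and 161 CPM with sgEZH2-1, 675, 699 and 672 with sgEZH2-2 and 441 and 507 in the controls. The sgEZH2-1 libraries were below and the sgEZH2-2 libraries above both controls (-1.82, SE 0.16, adjusted p = 7.76e-05), although the sgEZH2-2 change from control did not pass the test (0.53, adjusted p = 0.101). CEL, a bile salt-stimulated lipase with a closely related pseudogene, was at 10.7, 9.30 and 9.52 CPM with sgEZH2-1, 34.1, 35.7 and 30.4 with sgEZH2-2 and 35.5 and 35.0 in the controls (-1.77, SE 0.09, adjusted p = 2.98e-06). Only its sgEZH2-1 libraries were low.

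In a further set the sgEZH2-2 libraries carried the change from control. STC1, the secreted hormone stanniocalcin 1, was at 3.398, 2.67 and 2.24 CPM with sgEZH2-1, 8.42, 9.28 and 9.08 with sgEZH2-2 and 1.85 and 2.87 in the controls. Its sgEZH2-1 and control libraries overlapped and its sgEZH2-2 libraries were high (-1.69, SE 0.19, adjusted p = 0.000256). SULF1, an extracellular heparan sulfatase, had the same order, with 6.49, 5.34 and 4.41 CPM, 13.6, 16.7 and 13.96 CPM and 5.54 and 5.93 CPM (-1.45, SE 0.15, adjusted p = 0.000166). MMP1, interstitial collagenase, was at 29.5, 23.6 and 22.2 CPM with sgEZH2-1, 67.7, 63.2 and 65.6 with sgEZH2-2 and 30.5 and 30.5 in the controls (-1.39, SE 0.10, adjusted p = 1.47e-05). Against control MMP1 was higher with sgEZH2-2 (1.10, adjusted p = 0.000174), and with sgEZH2-1 its value was -0.28 (adjusted p = 0.094). Among the other large differences in this direction, ASB2, a ubiquitin ligase adaptor, was at -1.74, and LGALS9C, a galectin with near-identical copies and so uncertain, at -1.55 (adjusted p = 0.000913 and 0.00496).

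A small group lay on opposite sides of the controls. In 25 genes higher with sgEZH2-1 (0.19% of tested) and 21 lower (0.16%), each guide differed from control at an adjusted p of at most 0.05 and in opposite directions. Both comparisons share the controls. FST, follistatin, which binds activins (chromosome 5, 53480409 to 53487134, plus strand), was at 69.6, 74.98 and 76.9 CPM with sgEZH2-1, 22.0, 18.2 and 19.1 with sgEZH2-2 and 36.0 and 37.4 in the controls. The 3 groups did not overlap, with log2 changes of 1.01 and -0.89 from control (adjusted p = 3.25e-05 and 0.000233) and 1.90 between the guides (SE 0.08, adjusted p = 2.78e-06).

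The same order held for CPA4, a secreted carboxypeptidase, at 21.1, 21.7 and 23.8 CPM with sgEZH2-1, 4.07, 3.85 and 3.97 with sgEZH2-2 and 9.45 and 7.43 in the controls (2.48, SE 0.12, adjusted p = 2.98e-06). CDH2, N-cadherin, was at 34.8, 34.3 and 34.9 CPM, 12.8, 12.6 and 13.8 CPM and 26.3 and 23.6 CPM in that order of groups (1.41, SE 0.08, adjusted p = 3.59e-06). F3, tissue factor, the starter of blood coagulation, was at 374, 403 and 415 CPM, 140.4, 118 and 137 CPM and 171 and 174 CPM (1.59, SE 0.07, adjusted p = 2.78e-06). In each of these genes the sgEZH2-1 libraries were above and the sgEZH2-2 libraries below both controls. The same was true of ANXA3, a calcium-dependent phospholipid-binding protein (2.12, adjusted p = 3.59e-06), and SERPINB7, an epidermal protease inhibitor (2.23, adjusted p = 5.6e-05).

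In the opposite direction, CLCA2, a p63-regulated membrane protein of keratinocytes, was at 6.02, 5.20 and 5.04 CPM with sgEZH2-1, 13.6, 13.8 and 13.7 with sgEZH2-2 and 10.4 and 10.2 in the controls (-1.34, SE 0.11, adjusted p = 3.89e-05). NGFR, the p75 neurotrophin receptor, was at 40.3, 42.1 and 44.6 CPM, 74.3, 90.2 and 78.6 CPM and 61.4 and 53.4 CPM in the same order of groups (-0.93, SE 0.09, adjusted p = 9.76e-05). In both genes the sgEZH2-1 libraries were below and the sgEZH2-2 libraries above both controls. LRG1, a secreted glycoprotein, differed by -0.99, the amino acid transporter SLC6A15 by -1.05 and PLA2G4A, cytosolic phospholipase A2, by -0.95 (adjusted p = 2.55e-05, 0.000289 and 0.000296).

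**Figure D2:**
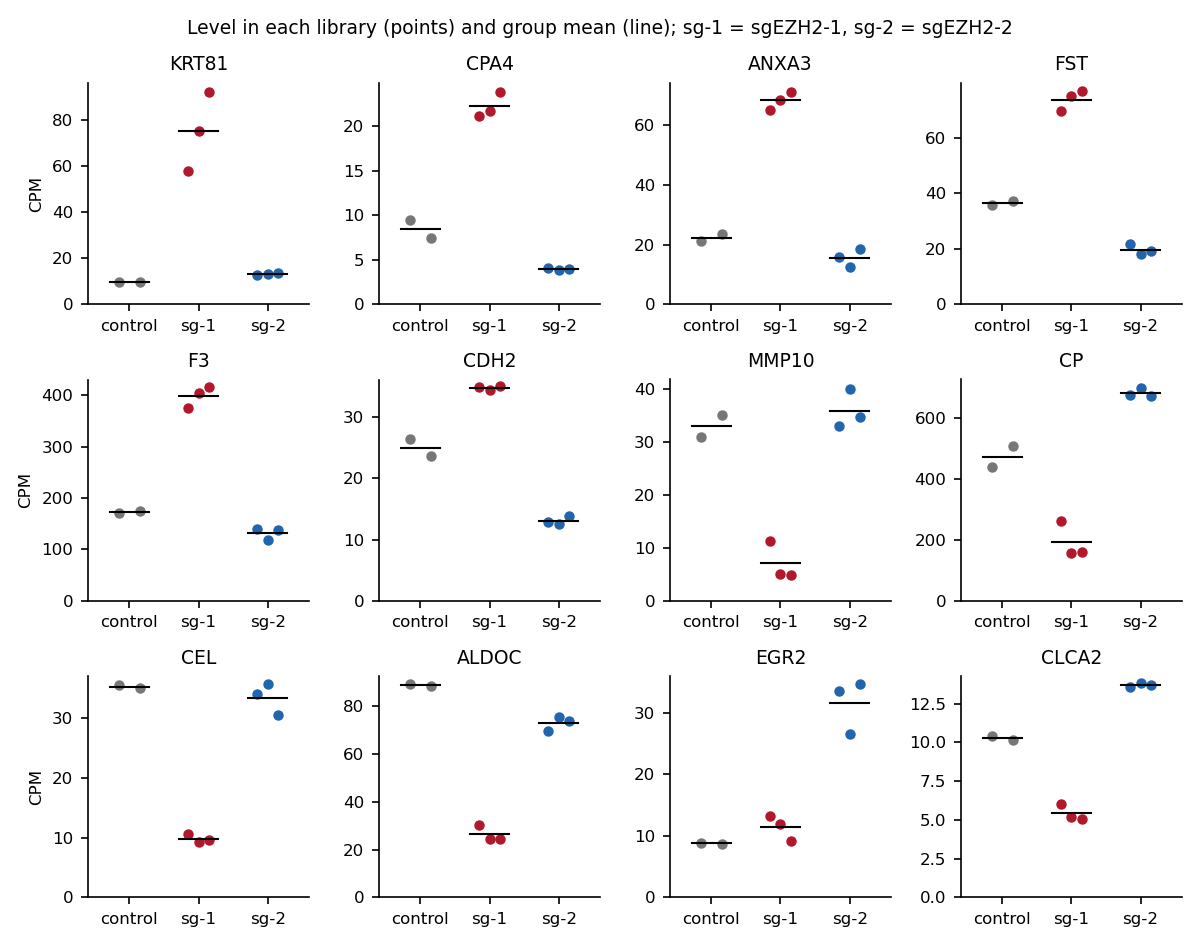
CPM (vertical axis, from 0) of 12 named genes in each library, as points, with the group mean as a line; sg-1 is sgEZH2-1 and sg-2 is sgEZH2-2. In the CPA4, ANXA3, FST, F3 and CDH2 panels the sgEZH2-1 points sit above and the sgEZH2-2 points below both controls, and in CLCA2 the order is turned.

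Most lipid synthesis genes were lower with sgEZH2-1 than with sgEZH2-2. Of 37 cholesterol and fatty acid synthesis genes, all tested, 29 (78.4%) were lower and 1 (ELOVL6, a fatty acid elongase) was higher. Here and for each list that follows, the background over all tested genes was 11.5% lower and 10.4% higher with a median of -0.01. The median difference of the list was -0.36. Its median change from control was -0.48 with sgEZH2-1 and -0.10 with sgEZH2-2. Without the first sgEZH2-1 library 30 were lower and 1 was higher, and without the second or without the third sgEZH2-2 library 0 were higher. Leaving out any 1 of the other guide libraries gave 25 or 26 lower.

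SCD, stearoyl-CoA desaturase, was at 1814, 1561 and 1506 CPM with sgEZH2-1, 3559, 3661 and 3659 with sgEZH2-2 and 3477 and 3549.7 in the controls. The sgEZH2-1 libraries were low, the sgEZH2-2 libraries were just above both controls, and the guides differed by -1.16 (SE 0.06, adjusted p = 3.59e-06). FASN, fatty acid synthase, was at 418, 593 and 618 CPM, 1125, 1516 and 1349 CPM and 1119.9 and 876 CPM (-1.29, SE 0.15, adjusted p = 0.000406). Its sgEZH2-1 libraries were below all others, and its sgEZH2-2 libraries were above both controls, the first of them narrowly.

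Both transcription factors of the pathway differed. SREBF1, which drives fatty acid genes, was at 122, 138 and 164 CPM with sgEZH2-1, 263, 325 and 306 with sgEZH2-2 and 236 and 194 in the controls (-1.08, SE 0.12, adjusted p = 0.000217). It was below control with sgEZH2-1 (-0.60, adjusted p = 0.00823) and above it with sgEZH2-2 (0.47, adjusted p = 0.05, at the threshold). SREBF2, which drives cholesterol genes and whose promoter is printed above, was at 222, 229 and 234 CPM, 323, 372 and 358 CPM and 338 and 317 CPM (-0.62, SE 0.06, adjusted p = 0.000104). FDFT1, squalene synthase, differed by -0.55 (adjusted p = 8.42e-05).

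About as many hypoxia and glycolysis genes were lower with sgEZH2-1 as did not differ. Of 38 listed and 37 tested, 19 (51.4%) were lower and 0 higher, with a median of -0.21, and 19 and 0 without the first sgEZH2-1 library. With any 1 of the other guide libraries left out, 17 to 20 were lower. The median change from control was -0.23 with sgEZH2-1 and 0.02 with sgEZH2-2. ALDOC, the glycolytic enzyme aldolase C whose promoter is printed above, was at 30.4, 24.2 and 24.2 CPM with sgEZH2-1, 69.7, 75.4 and 73.7 with sgEZH2-2 and 89.3 and 88.4 in the controls. Its sgEZH2-1 libraries were far below the rest (-1.47, SE 0.09, adjusted p = 5.84e-06). BNIP3, a mitophagy receptor, was at 43.6, 39.9 and 40.5 CPM, 78.8, 77.2 and 77.4 CPM and 69.2 and 73.0 CPM, with its sgEZH2-1 libraries low (-0.91, SE 0.06, adjusted p = 9.33e-06). PFKFB4, a regulator of glycolytic flux, differed by -1.01, NDRG1, a stress-induced gene, by -0.80, and CA9, the acid-regulating carbonic anhydrase 9, by -1.34 (adjusted p = 3.09e-05, 1.47e-05 and 0.000208). VEGFA, the angiogenic growth factor, had 0.07 (adjusted p = 0.268), and LDHA, lactate dehydrogenase, -0.02 (adjusted p = 0.804). So 18 of the 37 tested members did not pass the test.

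MHC class II genes, which present peptides to helper T cells, had median changes above 0 with both guides and were higher with sgEZH2-2. Of 13 listed and 10 tested, 8 (80%) were lower with sgEZH2-1 than with sgEZH2-2 and 0 higher, with a median of -1.002, and 8 and 0 without the first sgEZH2-1 library. With the second or the third library of either guide left out, 7 were lower. The median change from control was 1.21 with sgEZH2-1 and 2.15 with sgEZH2-2. HLA-DRA, the invariant alpha chain of HLA-DR, was at 26.03, 15.1 and 14.6 CPM with sgEZH2-1, 41.7, 42.2 and 46.1 with sgEZH2-2 and 8.81 and 10.3 in the controls. The 3 groups did not overlap, although the first sgEZH2-1 library was well above the others of its group (-1.23, SE 0.18, adjusted p = 0.00135).

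HLA-DRB1, its partner, was at 10.3, 7.25 and 7.28 CPM with sgEZH2-1, 14.9, 16.3 and 17.1 with sgEZH2-2 and 2.98 and 2.93 in the controls (-0.96, SE 0.14, adjusted p = 0.00124). CD74, the invariant chain that escorts class II molecules, was at 15.99, 13.8 and 15.2 CPM, 26.7, 33.7 and 31.7 CPM and 13.2 and 12.3 CPM (-1.03, SE 0.10, adjusted p = 0.000134). CIITA, the master activator of the group, was at 14.7, 13.6 and 14.4 CPM, 22.8, 26.3 and 22.0 CPM and 17.5 and 17.5 CPM (-0.73, SE 0.09, adjusted p = 0.00042). CIITA alone of these 4 had its sgEZH2-1 libraries below both controls, where its change was -0.30 (adjusted p = 0.0595). Reads of HLA genes can be shared between near copies and depend on the alleles of the line, so their levels are uncertain.

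Interferon-stimulated genes went both ways: of 47 listed and 45 tested, 7 were higher and 9 lower with sgEZH2-1 (15.6% and 20%). The counts were 5 and 9 without the first sgEZH2-1 library, 4 and 5 without the second, 4 and 4 without the second sgEZH2-2 library, and 3 and 4 without the third. RSAD2, an antiviral enzyme, was at 23.1, 17.7 and 20.4 CPM with sgEZH2-1, 11.9, 9.83 and 12.3 with sgEZH2-2 and 3.054 and 2.9996 in the controls (0.84, SE 0.12, adjusted p = 0.00124). IFITM1, a membrane protein that blocks virus entry, was at 61.2, 55.0 and 60.8 CPM, 93.5, 100.2 and 97.6 CPM and 74.6 and 66.5 CPM (-0.72, SE 0.07, adjusted p = 9.76e-05). RSAD2 was thus highest with sgEZH2-1 and IFITM1 with sgEZH2-2. STING1, an adaptor that senses cyclic dinucleotides, was lower with sgEZH2-1 (log2 difference -0.67, SE 0.07, adjusted p = 0.000127). Of 13 tested viral nucleic acid sensing genes 1 was higher and 3 lower (7.69% and 23.1%), and 0 to 1 and 2 to 3 over all alternatives. Of 22 tested chemokine and interleukin genes 4 were higher and 5 lower (18.2% and 22.7%). Their median was 0.21, and 0.05 to 0.33 over all alternatives. Of cytokine genes, IL1RN, the interleukin 1 receptor antagonist, was higher by 1.15, and the chemokines CXCL8 and CX3CL1 differed by -1.28 and -0.77 (adjusted p = 5.8e-06, 0.000245 and 0.000134).

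The list of immediate early and MAPK feedback genes, which respond early to growth factor signals, was more often higher with sgEZH2-2. Of its 24 genes, all tested, 13 were lower and 2 higher with sgEZH2-1 (54.2% and 8.33%), with a median of -0.33, and 12 and 2 without the first sgEZH2-1 library. The higher count was 1 without any 1 of the other guide libraries. There the lower count ran from 9 to 14, with 9 without the third sgEZH2-2 library and 10 without the second sgEZH2-1 library. The median change from control was -0.03 with sgEZH2-1 and 0.21 with sgEZH2-2. EGR2, a zinc finger factor, was at 13.2, 11.97 and 9.17 CPM with sgEZH2-1, 33.6, 26.5 and 34.7 with sgEZH2-2 and 8.88 and 8.67 in the controls. The sgEZH2-2 libraries stood apart from all others (-1.47, SE 0.14, adjusted p = 0.00011). EGR1, its relative, was at 544, 614 and 595 CPM, 925, 926 and 997 CPM and 668 and 658 CPM (-0.70, SE 0.05, adjusted p = 2.67e-05), and FOS, a subunit of AP-1, differed by -0.41 (adjusted p = 0.000662). EGR1 was above control with sgEZH2-2 (0.52, adjusted p = 0.000527) and at -0.18 with sgEZH2-1 (adjusted p = 0.0525). FOSL1, another AP-1 subunit, went the other way (0.74, SE 0.10, adjusted p = 0.000667).

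Of 16 tested FGF pathway genes 2 were higher and 5 lower (12.5% and 31.3%), with 0 higher and 2 lower without the third sgEZH2-2 library, and 1 higher without the second sgEZH2-1 or the first sgEZH2-2 library. Among the lower ones were ETV5, a transcription factor, at -0.71 and SPRY1, an inhibitor of the pathway, at -0.54 (adjusted p = 0.000104 and 0.000785). Of 18 tested NOTCH pathway genes 0 were higher and 5 lower (27.8%), with 2 lower without the third sgEZH2-2 library. The NOTCH median was -0.22, and -0.08 with the GC offset. Without the first sgEZH2-1 library the counts were 2 and 5 for FGF and 1 and 4 for NOTCH. JAG2, a NOTCH ligand, was at 16.7, 22.9 and 25.5 CPM with sgEZH2-1, 35.6, 42.7 and 39.7 with sgEZH2-2 and 38.8 and 29.3 in the controls (-0.85, SE 0.15, adjusted p = 0.00374), with its sgEZH2-1 libraries below all others. LRIG1, which restrains ERBB receptors, differed by -0.77, and their ligand TGFA by 0.48 (adjusted p = 2.23e-05 and 0.000841).

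**Figure D3:**
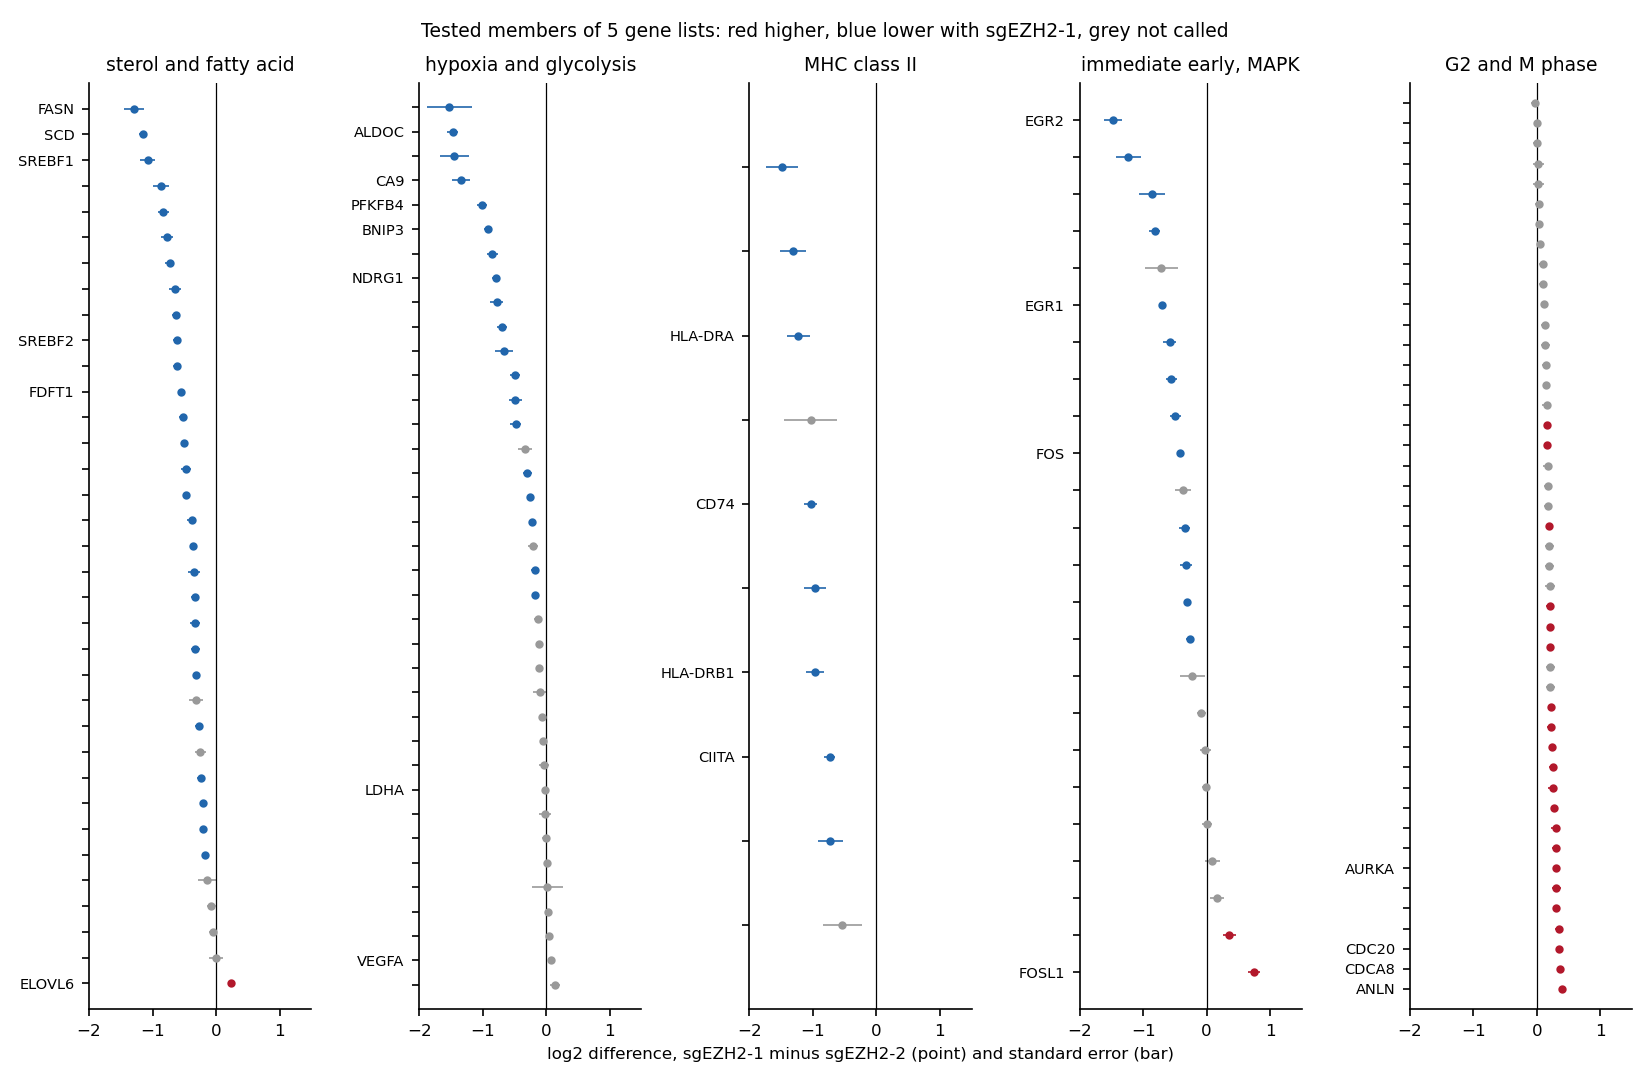
Log2 difference, sgEZH2-1 minus sgEZH2-2 (point), with its standard error (bar) for tested members of 5 gene lists, with 2 of the sterol list not drawn; red is called higher, blue called lower and grey not called, and the members described in the text are labelled. The sterol panel holds 28 blue points of 35, the hypoxia panel 19 of 37, the MHC class II panel 8 of 10 and the immediate early panel 13 of 24, while the G2 and M phase panel holds 21 red points of 45 and no blue one.

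Many mitotic genes were slightly higher with sgEZH2-1. Of 45 G2 and M phase genes, all tested, 21 (46.7%) were higher and 0 lower, with a median of 0.20. The median change from control was 0.16 with sgEZH2-1 and -0.01 with sgEZH2-2. The count of higher genes was 20 without the first sgEZH2-1 library, 13 without the second, and 12 without the third sgEZH2-2 library. ANLN, anillin, a scaffold of the cytokinetic ring, was at 946, 949.6 and 931 CPM with sgEZH2-1, 739, 700.4 and 717 with sgEZH2-2 and 773 and 785 in the controls (0.39, SE 0.04, adjusted p = 0.000127). CDC20, an activator of the anaphase-promoting complex, was at 336, 346 and 358 CPM, 267, 269.9 and 276 CPM and 299 and 278 CPM (0.35, SE 0.05, adjusted p = 0.000637). Both genes, whose promoters are printed above, had every sgEZH2-1 library above every other library. AURKA, a mitotic kinase, differed by 0.30, and CDCA8, a chromosomal passenger protein, by 0.37 (adjusted p = 0.00203 and 0.000985).

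S phase genes held calls in both directions. Of 43 genes, all tested, 3 were higher and 8 lower (6.98% and 18.6%), with a median of -0.07, and 2 and 7 without the first sgEZH2-1 library. MCM2 and MCM6, subunits of the replicative helicase, differed by -0.40 and -0.27 (adjusted p = 0.00303 and 0.0053). The lower count was 5 without the second sgEZH2-1 library and 5 without the third sgEZH2-2 library. The higher count was 0 without the third sgEZH2-2 library, and 1 without the second sgEZH2-1, the third sgEZH2-1 or the second sgEZH2-2 library.

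Heat shock genes and NRF2 targets were more often higher than lower with sgEZH2-1. Of 13 heat shock genes, 12 were tested, 6 higher and 1 lower (50% and 8.33%), with a median of 0.19. From control the list median was -0.03 with sgEZH2-1 and -0.20 with sgEZH2-2. By library the list mean from control was -0.19, -0.01 and -0.04 with sgEZH2-1 and -0.18, -0.06 and -0.15 with sgEZH2-2, so the guides overlapped. Without the first sgEZH2-1 library the counts were the same, and 0 were lower without the second sgEZH2-1, the second sgEZH2-2 or the third sgEZH2-2 library. HSPA8, the constitutive HSP70, was at 3474, 3557 and 3362 CPM with sgEZH2-1, 2743, 2685 and 2713 with sgEZH2-2 and 3172 and 3121 in the controls (0.35, SE 0.04, adjusted p = 0.00017). HSP90AB1, an HSP90 chaperone, was at 4683, 4713 and 4586 CPM, 3804, 3812 and 3928 CPM and 4321 and 4317 CPM (0.28, SE 0.03, adjusted p = 0.000502). In both, the sgEZH2-2 libraries were below and the sgEZH2-1 libraries above both controls. Of 16 tested unfolded protein response genes 1 was higher and 5 lower (6.25% and 31.3%), among the latter CALR, calreticulin (-0.26, adjusted p = 0.00186). Without the first sgEZH2-1 library the counts were 1 and 6, and 0 were higher without the second sgEZH2-1, the second sgEZH2-2 or the third sgEZH2-2 library.

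Of 26 NRF2 targets, all tested, 10 were higher and 5 lower (38.5% and 19.2%), and 11 and 4 without the first sgEZH2-1 library. From control the list median was -0.12 with sgEZH2-1 and -0.11 with sgEZH2-2, below 0 with both guides. The lower count was 3 without the third sgEZH2-1, the second sgEZH2-2 or the third sgEZH2-2 library. TXNRD1, thioredoxin reductase, was at 1101, 1116 and 1109 CPM with sgEZH2-1, 829, 809 and 813 with sgEZH2-2 and 931 and 941 in the controls (0.44, SE 0.04, adjusted p = 4.22e-05). SLC7A11, the cystine importer, was at 132, 128 and 140.2 CPM, 66.7, 56.8 and 56.6 CPM and 77.4 and 105 CPM (1.15, SE 0.11, adjusted p = 0.000104). It was above control with sgEZH2-1 (0.55, adjusted p = 0.00935) and below it with sgEZH2-2 (-0.60, adjusted p = 0.0116). Of 32 ATF4 targets and amino acid transporters, all tested, 10 were higher and 4 lower (31.3% and 12.5%), with 10 and 3 without the first sgEZH2-1 library and 8 and 2 without the second sgEZH2-2 library. PSAT1, an enzyme of serine synthesis, was higher by 0.41, and DDIT4, an inhibitor of mTOR complex 1, differed by -0.96 (adjusted p = 0.000314 and 5.8e-06).

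YAP-TEAD targets, TGF-beta and BMP pathway genes and mesenchymal genes were more often higher than lower with sgEZH2-1. Of 23 tested YAP-TEAD targets 10 were higher and 1 lower (43.5% and 4.35%), with a median of 0.15, and 9 and 1 without the first sgEZH2-1 library. AXL, a receptor kinase, was at 57.2, 66.8 and 67.6 CPM with sgEZH2-1, 23.3, 23.4 and 24.2 with sgEZH2-2 and 28.8 and 25.4 in the controls (1.43, SE 0.08, adjusted p = 5.8e-06). IGFBP3, which binds insulin-like growth factors, was at 125, 114 and 118 CPM, 53.7, 57.3 and 55.7 CPM and 46.3 and 51.4 CPM (1.10, SE 0.06, adjusted p = 5.11e-06). AXL and IGFBP3 were high in the sgEZH2-1 libraries alone. AJUBA, a LIM protein that holds LATS kinases, was at 69.9, 71.4 and 76.5 CPM, 47.6, 48.5 and 50.2 CPM and 69.1 and 66.0 CPM, so here the sgEZH2-2 libraries were low and the sgEZH2-1 libraries near control (0.57, SE 0.06, adjusted p = 0.000166).

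Of 42 TGF-beta and BMP pathway genes, 38 were tested, 11 higher and 3 lower (28.9% and 7.89%). The counts were 9 and 2 without the first sgEZH2-1 library, 7 were higher without the second, and 1 was lower without the second sgEZH2-2 library. Ligands and their binders were among the higher ones. TGFB2, a TGF-beta ligand, differed by 0.78, and INHBB, an activin subunit, by 1.32 (adjusted p = 0.000408 and 4.89e-05). FSTL3, an activin antagonist like FST, differed by 1.11 (adjusted p = 0.000894). Of 22 tested mesenchymal genes (30 listed) 8 were higher and 4 lower (36.4% and 18.2%), and 8 and 3 without the first sgEZH2-1 library. The lower count was 2 without the second sgEZH2-2 library. The median of the mesenchymal list was 0.29, but 0.06 when genes under a minimum count of 50 were removed and 0.18 without the first sgEZH2-1 library.

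Matrix proteases and their inhibitors split evenly, with 6 higher and 6 lower of 21 tested (28.6% each), 6 and 5 without the first sgEZH2-1 library, and 3 lower without the second sgEZH2-2 library. PLAU, the urokinase plasminogen activator, was at 542, 553 and 556 CPM with sgEZH2-1, 283, 278 and 303 with sgEZH2-2 and 297 and 280.4 in the controls (0.93, SE 0.05, adjusted p = 2.98e-06). PLAT, the tissue plasminogen activator, was at 22.8, 22.0 and 24.4 CPM, 51.8, 58.8 and 52.1 CPM and 53.9 and 50.7 CPM (-1.23, SE 0.08, adjusted p = 7.89e-06). The sgEZH2-1 libraries were thus high in urokinase and low in tissue activator, and the sgEZH2-2 libraries overlapped the controls in both. TIMP2, a metalloprotease inhibitor, differed by 0.80 (SE 0.05, adjusted p = 9.33e-06).

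Keratinocyte genes differed member by member. Of 52 epidermal differentiation genes, 32 were tested, 10 higher and 3 lower with sgEZH2-1 (31.3% and 9.38%), with a median of 0.20. The counts were 10 and 4 without the first sgEZH2-1 library, and 6 were higher without the second or without the third sgEZH2-2 library. Without the second sgEZH2-1 or the third sgEZH2-2 library 1 was lower, and the median was 0.11 without the third sgEZH2-1 library. KRT80, an epithelial keratin, was at 397, 479 and 504 CPM with sgEZH2-1, 204, 203 and 217 with sgEZH2-2 and 215 and 201 in the controls (1.15, SE 0.08, adjusted p = 1.67e-05). KLK6, a serine protease, was at 63.6, 67.0 and 68.6 CPM, 27.6, 28.6 and 29.5 CPM and 33.0 and 32.9 CPM (1.22, SE 0.06, adjusted p = 2.98e-06). In both the sgEZH2-1 libraries were high and apart. GRHL3, a transcription factor of barrier formation, differed by 1.21 (adjusted p = 5.6e-05).

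Basal keratinocyte genes split, with 6 higher and 6 lower of 23 (26.1% each), and 5 and 6 without the first sgEZH2-1 library. TP63, the master factor of stratified epithelium, was at 119, 105 and 104 CPM with sgEZH2-1, 195, 180.2 and 183 with sgEZH2-2 and 208 and 233 in the controls. The sgEZH2-1 libraries were far below the rest (-0.77, SE 0.07, adjusted p = 7.05e-05). COL17A1, a hemidesmosome collagen, differed by -0.65, SOX2, a factor of squamous stem cells, by -0.52, and ASS1, an enzyme of arginine synthesis, by 0.64 (adjusted p = 7.32e-05, 0.000817 and 8.42e-05). Of 9 wound and stress keratins, 8 were tested, 4 higher and 1 lower (50% and 12.5%), with 5 and 1 without the first sgEZH2-1 library and 2 higher without the second or without the third. KRT16, a keratin of wound edges, was at 12.2, 13.3 and 14.1 CPM with sgEZH2-1, 7.73, 6.92 and 7.17 with sgEZH2-2 and 6.82 and 5.67 in the controls (0.86, SE 0.12, adjusted p = 0.000801).

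Desmosome and junction genes were higher in 8 and lower in 1 of 22 tested (36.4% and 4.55%), with 9 and 2 without the first sgEZH2-1 library and 2 lower without the third. The higher count was 5 without the second sgEZH2-1 library, 4 without the second sgEZH2-2 library and 5 without the third. OCLN and TJP1, tight junction proteins, differed by 0.74 and 0.58 (adjusted p = 0.000138 and 0.000126). CDH1, E-cadherin, was at 190.5, 184 and 185 CPM with sgEZH2-1, 139, 144 and 139 with sgEZH2-2 and 158 and 170.0 in the controls (0.40, SE 0.05, adjusted p = 0.000345). E-cadherin and N-cadherin thus both lay above control with sgEZH2-1 and below it with sgEZH2-2.

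**Figure D4:**
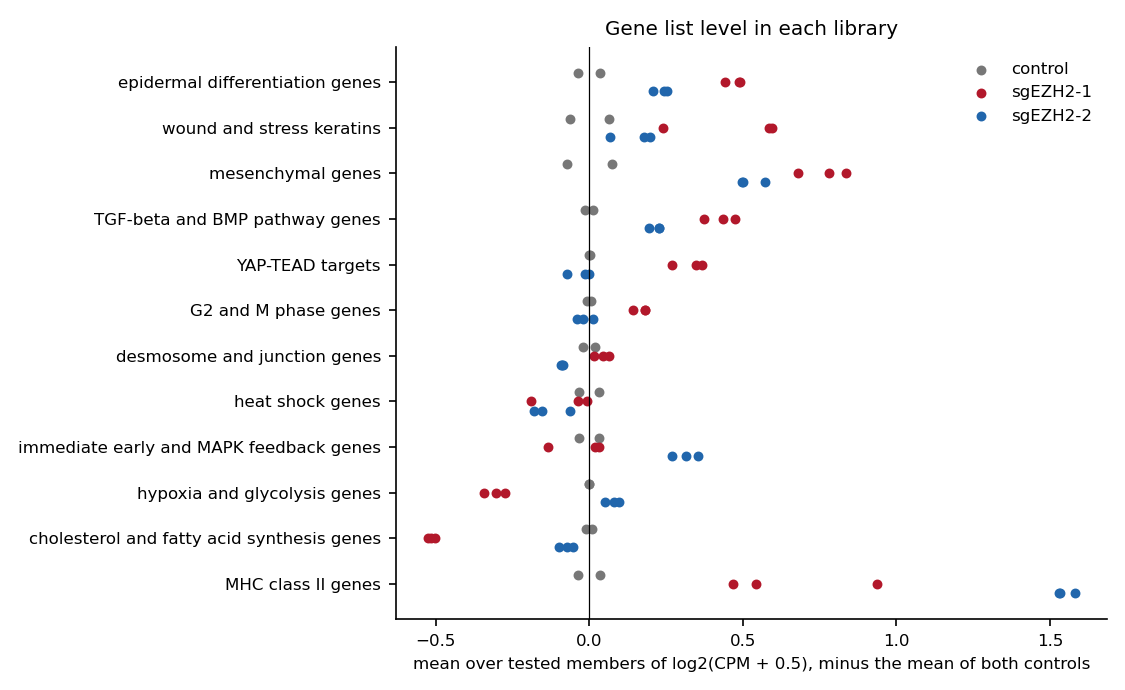
Level of 12 gene lists in each library: the mean over tested members of log2(CPM + 0.5), minus the mean of both controls, on the horizontal axis, with 1 point per library. In the sterol and hypoxia rows the sgEZH2-1 points lie left of the controls, and in the MHC class II row both guides lie right of the controls with sgEZH2-2 the farther.

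Developmental genes, the classical targets of PRC2, were called at shares near or below those of all tested genes (10.4% higher and 11.5% lower). Of 100 developmental transcription factors, 65 were tested, 5 higher and 5 lower (7.69% each). Of 39 HOX genes 22 were tested, 3 higher and 2 lower (13.6% and 9.09%). The median change of the developmental factors from control was 0.17 with sgEZH2-1 and 0.22 with sgEZH2-2. The higher count of these factors was 3 without the second sgEZH2-1 or second sgEZH2-2 library, 2 without the third sgEZH2-2 library and 11 with the GC offset described at the end. SOX9, a factor of hair follicle stem cells, was at 13.0, 14.98 and 16.9 CPM with sgEZH2-1, 5.59, 6.77 and 6.10 with sgEZH2-2 and 6.32 and 6.65 in the controls (1.29, SE 0.13, adjusted p = 0.000152). SOX21 was at 5.17, 5.06 and 4.06 CPM, 11.9, 10.3 and 9.69 CPM and 6.39 and 6.39 CPM (-1.16, SE 0.14, adjusted p = 0.000376). SOX9 was thus high with sgEZH2-1 alone and SOX21 with sgEZH2-2 alone. HOXC13, a hair and nail factor, differed by 0.83 (adjusted p = 0.00172). Without the first sgEZH2-1 library the counts were 5 and 6 for the developmental factors and 2 and 1 for the HOX genes, of which 1 was lower without any 1 guide library. Of 23 PRC1 subunits, all tested, 3 were higher and 2 lower (13.0% and 8.70%, near the background), among the lower ones CBX7, which binds the PRC2 mark (-0.60, adjusted p = 0.000835). Of the PRC1 subunits 0 were higher without the second or without the third sgEZH2-2 library and 1 without the second sgEZH2-1 library, 5 were higher without either control library, and 1 was lower without any 1 guide library except the first sgEZH2-2. With the GC offset 7 PRC1 subunits were higher and 1 lower. Over all genes that fit had 2157 higher and 1913 lower of 13079. The counts with the offset, here and for the developmental factors, thus have a larger background than the main fit.

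Mitochondrially encoded genes were higher in 5 of 13 (38.5%) with sgEZH2-1 and lower in 0, with a median of 0.31. Without the first sgEZH2-1 library 4 were higher, and 3 without the second sgEZH2-1 or without the third sgEZH2-2 library. Without the first sgEZH2-2 library, whose mean over the list was -0.58 from control beside -0.03 and -0.13 in the other sgEZH2-2 libraries, the median was 0.15. Their summed share of counts was 1.62% to 1.71% with sgEZH2-1, 1.12% to 1.57% with sgEZH2-2, and 1.53% and 1.70% in the controls, so every sgEZH2-2 library was below every sgEZH2-1 library. MT-ND5, a subunit of complex I, differed by 0.53 (SE 0.09, adjusted p = 0.00319). Of 59 tested nuclear oxidative phosphorylation genes (72 listed), 0 were higher and 5 lower (8.47%, below the background). The lower count was 2 without the first or second sgEZH2-1 library, and 2 without the second or the third sgEZH2-2 library.

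Several of these lists had a count of 0 in 1 direction by the edgeR test. At an unadjusted p under 0.05 the same direction held 0 hypoxia and glycolysis genes, 0 MHC class II genes, 0 G2 and M phase genes, 0 nuclear oxidative phosphorylation genes, 0 mitochondrially encoded genes and 1 NOTCH pathway gene. By DESeq2 and by limma voom, with adjusted p, each of these counts was 0.

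The differences moved with the base composition of the transcripts. Tested genes were divided into 5 equal groups by GC content. From the group of lowest to that of highest GC content the median difference went from 0.09 to -0.19, the share called higher from 14.5% to 2.83%, and the share called lower from 4.24% to 19.3%. Within a library, the median level of the highest group minus that of the lowest was -0.39, -0.07 and 0.01 with sgEZH2-1, -0.07, 0.25 and 0.18 with sgEZH2-2, and 0.24 and -0.12 in the controls. The first sgEZH2-1 library was the lowest, and the groups overlapped. With a GC offset per library in the edgeR fit, chosen after seeing the data, 2157 genes were higher and 1913 lower of 13079. In that fit the list counts were 1 higher and 32 lower for sterol and fatty acid synthesis, 2 and 19 for hypoxia and glycolysis, 0 and 8 for MHC class II and 30 and 1 for G2 and M phase. ATF4 targets had 17 higher and 4 lower. YAP-TEAD targets had a median of 0.28 and counts of 14 and 1 there, and hypoxia and glycolysis genes a median of -0.14.

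By chromosome, the GC-rich chromosomes 16, 19 and 22 had the lowest shares of higher genes among the autosomes. On chromosome 19, of 919 tested genes 32 were higher (3.48%) and 125 lower (13.6%), beside 10.4% and 11.5% of all tested genes. Its median difference was -0.12 and its median transcript GC content 58.8%. On chromosome 22, 14 of 324 were higher (4.32%) and 53 lower (16.4%), and on chromosome 16, 37 of 630 (5.87%) and 90 (14.3%). Chromosome 17, with a median GC content of 54.4%, had 79 of 809 higher (9.77%) and 125 lower (15.5%). On chromosome 13, with a median GC content of 42.1%, 35 of 215 were higher (16.3%) and 23 lower (10.7%). The part of base composition in the calls was not tested beyond the offset.

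**Figure D5:**
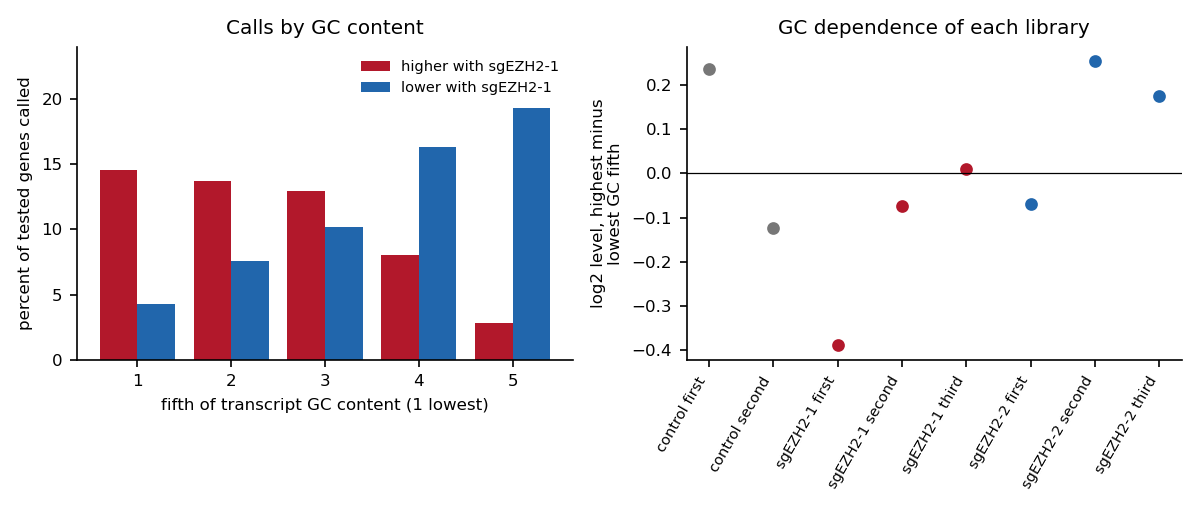
Left, percent of tested genes called higher (red) or lower (blue) with sgEZH2-1 in each of 5 equal groups by transcript GC content; right, for each library, the median log2 level of the highest GC group minus that of the lowest. The share called lower climbs from 4.24% to 19.3% with GC content, and the first sgEZH2-1 library has the lowest value at -0.39.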

How the data were processed

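The authors deposited a table of raw read counts, whole numbers per gene and library, for 8 RNA libraries of HSC-5 cells. The kit was TruSeq Stranded mRNA, per the labels' protocols. Tools named are FastQC, STAR and DESeq, with build hg38, per the submitters' processing notes. No version, counter, annotation or strand setting is given in the sources used here, so reads of overlapping or near-identical genes may be split in ways that cannot be checked. The columns name the guide and no replicate, so libraries are called first, second or the third by their order within a group.

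Counts were tested in edgeR 4.0.16 (R 4.3.3) by quasi-likelihood F test, two-sided, in 1 fit of 3 groups over all 8 libraries, with TMM scaling, filterByExpr at a minimum count of 10, and Benjamini-Hochberg adjustment over 13124 genes at a threshold of 0.05. Each adjusted p printed is from edgeR, except where a tool is given. The SE is derived from the F statistic. CPM are computed on TMM-scaled library totals. DESeq2 1.42.0 and limma 3.58.1 (voom), other scalings and filters, the guide libraries alone and leaving out each library were tried. A GC offset per library (smooth with span 0.3, 99.7% of tested genes) was chosen after seeing the data. Transcript GC content, coordinates (1-based) and exon overlap come from GENCODE release 29: 19873 symbols matched, 306 more through a renamed identifier, and 115 did not. The code was tested on simulated counts for this comparison (12963 genes, 200 changed): it recovered 78.0% of 50 genes changed 1.5-fold, 94.0% of 50 changed 2-fold, 98.0% of 50 changed 4-fold and 87.5% of 48 at 0.5-fold, with 5 false calls. The simulated spread followed the trend with expression level and held no effect of base composition on a library. These rates therefore check the code and need not hold for the real libraries.

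Named genes were the PRC2 subunits, the 12 largest differences each way (called, mean of at least 2 CPM, guides not overlapping), up to 4 members by smallest adjusted p of each list with at least 3 called, the 6 largest each way on opposite sides of control, and the 5 most abundant each way at 2-fold or more. CDH5, ELOVL6, CA9, VEGFA, LDHA, FOSL1, KRT86 and ALPG were named after their values were seen. The comparison and the 46 gene lists were chosen with earlier results of these data known. Lists are described by counts and shares called, beside the shares of all tested genes, with no set test. Some named genes are not reported here, but they remain in the counts.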

Additional observations from a re-analysis of the deposited data

Results flagged for a closer look

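Among genes that each guide changed from control in opposite directions, 12 named genes were the furthest apart between the guides. Only genes with a mean of at least 2 CPM and guides that did not overlap were considered. The test of the difference itself is the direct comparison by edgeR, and both changes share the controls. Higher with sgEZH2-1 were CPA4 (2.48 on the log2 scale), SERPINB7 (2.23), ANXA3 (2.12), FST (1.90), F3 (1.59) and CDH2 (1.41). Lower with sgEZH2-1 were CLCA2 (-1.34), SREBF1 (-1.08), SLC6A15 (-1.05), LRG1 (-0.99), PLA2G4A (-0.95) and NGFR (-0.93). In each, the 3 sgEZH2-1 libraries lay on 1 side of both controls and the 3 sgEZH2-2 libraries on the other. The way the genes were picked largely sets this order, so it describes them and tests nothing.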

How the results depend on the processing

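No paired analysis was possible because the columns of the count table carry no replicate numbers. Between the guides, leaving out each library in turn gave 692 to 1469 higher and 829 to 1536 lower genes, with 104 to 126 and 93 to 149 at 2-fold or more. The 2-fold counts were 75 and 68 at a minimum count of 50, where fewer genes were tested. The GC offset gave 2157 higher genes; the cause was not tested. Other scalings, DESeq2, limma voom, no filter and the guide libraries alone gave 1145 to 1489 higher and 1290 to 1603 lower genes. Against control, leaving out each library gave 844 to 1492 higher and 529 to 1145 lower genes with sgEZH2-1, and 439 to 957 and 82 to 408 with sgEZH2-2. The medians of the 12 gene lists plotted by library kept their sign under each of the 17 alternatives. Without 1 library each they ran from -0.41 to -0.35 for cholesterol and fatty acid synthesis, -0.26 to -0.19 for hypoxia and glycolysis, 0.17 to 0.20 for G2 and M phase, 0.11 to 0.27 for epidermal differentiation, 0.13 to 0.16 for desmosome and junction genes, and 0.18 to 0.35 for mesenchymal genes, which had 0.061 at a minimum count of 50. With the GC offset, and with it and without the first sgEZH2-1 library, the medians were -0.14 and -0.13 for hypoxia and glycolysis, -0.25 and -0.24 for immediate early genes, 0.17 and 0.17 for G2 and M phase, 0.28 and 0.27 for YAP-TEAD targets, and 0.25 and 0.24 for epidermal differentiation. With both changes they were -0.40 for cholesterol and fatty acid synthesis and 0.12 for desmosome and junction genes. Of 174 named genes with a call, 34 lost it under at least 1 alternative (33 without 1 library) and none changed sign. PRC2 members without a call changed sign without 1 library: AEBP2 ran from -0.068 to 0.047, EPOP from -0.026 to 0.0902, EZH1 from -0.036 to 0.0596, LCOR from -0.051 to 0.077 and PHF1 from -0.049 to 0.036. PHF1 was at 0.13 with the GC offset and 0.12 with it and without the first sgEZH2-1 library. Over all 17 alternatives EPOP reached 0.28, AEBP2 -0.094 and LCOR -0.069.

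Depth limits differences of genes near the minimum count. The control group had 2 libraries, and a further one was not analysed here, which limits the precision of changes from control. Copies of near-identical genes, HLA genes and overlapping genes have uncertain counts. List counts rest on members chosen with earlier results known, and genes of a list are not independent. When a library is left out of the control, the lone control is assumed to vary like the other groups.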

Other observations

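FAM220A (chromosome 7, 6329409 to 6348981, minus strand) and AC009412.1 traded their counts between libraries, a pair chosen after its values were seen. FAM220A had 0, 469 and 540 counts in the first, the second and the third sgEZH2-2 library, while AC009412.1 had 511, 0 and 0. With sgEZH2-1, FAM220A had 0, 5 and 3 counts and AC009412.1 had 475, 572 and 546, and in the controls FAM220A had 0 and 0 against 549 and 630. The sum of both was 35.3 to 41.2 CPM in every library. In all, 13 genes had 0 counts in 1 library and at least 100 in another library of the same group, and 8 of them share exons with another gene of the table. Genes that share exons made up 22.6% of tested genes and 20.3% of genes called between the guides.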
